A study of Rattus norvegicus with 6 samples.

Results

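The genes described here are the Zfp genes, rat protein-coding genes whose symbol is Zfp followed by a number. They were chosen by name and by abundance: each had a sum of at least 60 raw counts over the 6 libraries, and the sum did not use the group labels. Of the 20609 genes of the count table, 244 were protein-coding genes with such a symbol, and 212 of these reached the minimum. All 212 also passed the filter on low counts that left 12624 genes for the tests. The set was proposed with earlier results of these data known, so its counts are given as a description beside the same counts over all genes tested. Just inside the minimum lay Zfp239 (69 counts in all) and Zfp37 (76 counts), and just outside it lay Zfp473 (57 counts) and Zfp853 (56 counts). Of the 32 genes below the minimum, 1 (Zfp853) was tested.

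The study asked which transcripts change when the RNA-binding protein PCBP-1 (poly(C)-binding protein 1) is overexpressed. The study names the cells as PC12, a line from a rat pheochromocytoma of the adrenal medulla. According to the methods, they received a plasmid for EGFP-tagged PCBP-1 by lipid transfection (PCBP1-OE, 3 libraries). The other 3 libraries are titled as controls (Ctrl), and the methods name no control plasmid for them. Both groups were cultures of 1 line. The study describes both stable overexpression and lipid transfection of the plasmid, the labels do not settle which held for these libraries, and the harvest time for sequencing is not given in the sources used here. The labels do not say whether the libraries of a group came from separate passages, so the p-values measure the spread between these libraries only.

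C2H2 zinc finger proteins form the largest class of sequence-specific DNA-binding proteins in mammals. Their fingers are short zinc-holding loops that each contact a few bases, and tandem arrays of them read longer sequences. Many carry a KRAB domain, which recruits the corepressor Trim28 (KAP1) and, through it, the histone methyltransferase Setdb1 to silence transposable elements and imprinted loci. Others carry a BTB domain, through which they pair with each other and bind corepressors, or a SCAN domain for pairing. A symbol of this kind is no guarantee of a DNA-binding role, since several members bind RNA or modify ribosomes and other proteins.

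The 6 libraries held 19730209 to 22315623 counts on genes. Counts of at least 1 were found for 16950 to 17085 genes in the Ctrl libraries and 17153 to 17390 genes in the PCBP1-OE libraries. No gene of the table was matched to Pcbp1, so overexpression was not checked in these libraries. Markers that define the chromaffin cell were scarce: Chga, Chgb, Dbh and Ddc had 0 to 9 counts in each library, Slc18a1 had 17 to 28, and Th (tyrosine hydroxylase) had 141 to 185. Summed over the 6 chromaffin markers, the level was 8.47 to 9.87 CPM, the count scaled to the library total, in Ctrl and 8.62 to 9.90 CPM in PCBP1-OE. The sum of the 3 leukocyte markers was 3.77 to 3.98 CPM against 2.86 to 3.47 CPM, that of the 3 glial markers 6.58 to 7.38 against 4.49 to 6.44 CPM, and that of 2 fibroblast markers, nearly all of it Pdgfra, 223 to 229 against 199 to 211 CPM. These last 3 sums were lower in PCBP1-OE without overlap. Each was mostly 1 gene, Cd68, Gfap or Pdgfra, and none of these passed edgeR's quasi-likelihood test (adjusted p = 0.185, 0.217 and 0.0644). Of the other markers in these sums, Ptprc, Mbp and Col1a1 had higher means in PCBP1-OE, and Itgam and Aqp4 lower ones. The single endothelial marker in the table overlapped (0.223 to 0.383 against 0.182 to 0.446 CPM). The part of all these markers in the results below was not tested. In such bulk RNA, fewer cells of a type and less RNA per cell cannot be told apart.

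Zfp genes were higher in PCBP1-OE far more often than lower. Of the 212 members, 21 rose and 0 fell at a false discovery rate (FDR) of 0.05 or less in edgeR's quasi-likelihood test, which is 9.91% of the members. Over all genes tested 4.45% rose and 4.998% fell. At an unadjusted p under 0.05, without correction for the number of genes, 52 members were higher and 5 lower. Of all 12624 genes tested, 1722 were higher and 1866 lower by that measure. With limma-voom 19 members rose, with DESeq2 22 and with edgeR's exact test 25, and 0, 0 and 1 fell. Of all genes tested 573, 666 and 794 rose (4.54%, 5.28% and 6.29%) and 624, 752 and 807 fell, in the same order. A rise of at least 2-fold was called for 2 members, Zfp445 and Zfp952, against 0.158% of all genes, and the other 19 calls were of smaller folds.

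Most of the members that did not pass the test also lay on the higher side. The log2 fold change, PCBP1-OE over Ctrl, was above 0 for 162 members (76.4%) and for 50.5% of all genes tested. Its median was 0.12 over the members, with quartiles at 0.01 and 0.28, and 0.00 over all genes. All 3 PCBP1-OE libraries lay above all 3 Ctrl libraries for 56 members (26.4%), and all 3 lay below for 7 members (3.30%). The same measure over all genes gave 14.1% higher and 16.5% lower. The 21 called members were among the 56.

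**Figure D1:**
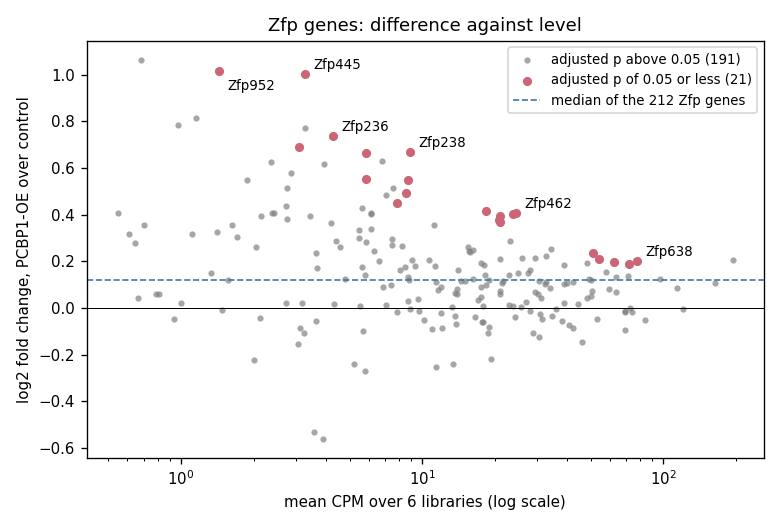
Each point is 1 of the 212 Zfp genes, with its mean CPM over the 6 libraries on a log axis and its log2 fold change, PCBP1-OE over Ctrl, on the vertical axis. Red points are the 21 genes at an FDR of 0.05 or less, grey points the others, and the dashed line the median of 0.12. Most points lie above 0 along the whole range of level, and the largest changes are at low CPM.

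The shift was present at every level of expression. CPM is not divided by gene length here, so it orders the members by reads and not by transcripts. Among the 71 members with the fewest reads (0.546 to 6.80 CPM) 6 rose and the median log2 fold change was 0.30, while 2.23% of the 3275 genes in the same span of CPM rose, with a median of 0.10. In the middle span (6.86 to 21.0 CPM) 8 of 70 members rose against 5.67% of 2223 genes, with medians of 0.11 and 0.03. In the highest span (21.1 to 194 CPM) 7 of 71 members rose and 0 fell, with a median of 0.08, while 5.47% of the 5907 genes there rose and 7.21% fell, with a median of -0.02. Genes with few reads were therefore higher in PCBP1-OE in general, and the members' medians lay above those of their span in all 3 spans.

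The libraries did not split evenly by group. The summed level of the 212 members was 4391, 4405 and 4548 CPM in the 3 Ctrl libraries and 4782, 4779 and 4728 CPM in the 3 PCBP1-OE libraries. This is 4448 ± 86.9 against 4763 ± 30.4 CPM (mean ± SD, n = 3 each), a ratio of 1.07. As a share of raw counts, with no scaling, the members took 0.425%, 0.432% and 0.457% in Ctrl and 0.493%, 0.486% and 0.469% in PCBP1-OE. The groups were separated on both measures, and replicate 3 of each group lay nearest to the other group.

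The same order was seen gene by gene. The median deviation of the members from their own mean over the 6 libraries, on the log2(CPM + 1) scale, was -0.09, -0.08 and 0.00 in Ctrl replicates 1 to 3 and 0.06, 0.06 and 0.04 in PCBP1-OE replicates 1 to 3. Over all genes the medians lay within 0.01 of 0 in every library. Ctrl replicates 1 and 2 held the lowest value for 66 and 67 of the members, and PCBP1-OE replicates 1 and 2 the highest for 64 and 55. Ctrl replicate 3 held the lowest for 28 members and the highest for another 28.

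**Figure D2:**
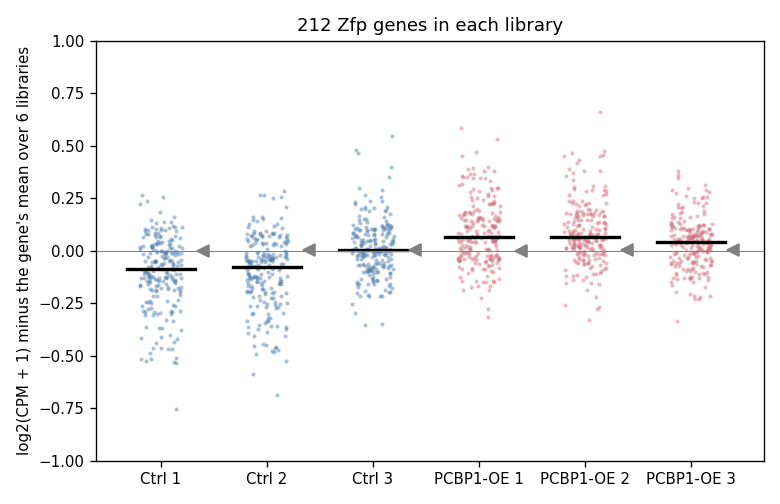
Each point is a Zfp gene in a library, placed by its log2(CPM + 1) minus its own mean over the 6 libraries, with Ctrl in blue and PCBP1-OE in red. Black bars are the medians over the 212 genes and grey arrowheads the medians over all genes tested. The black bars of Ctrl replicates 1 and 2 lie below 0, those of the 3 PCBP1-OE libraries above it, and that of Ctrl replicate 3 near 0.

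The number of calls depended on which libraries were used. Without Ctrl replicate 3, 49 members rose and 1 (Zfp536) fell, with all 21 among the 49, and 10.9% of all genes rose. Without Ctrl replicate 1 there were 2 calls, without Ctrl replicate 2 there were 0, and without PCBP1-OE replicate 1, 2 or 3 there were 3, 2 and 8, all of them rises. The share of all genes that rose was then also lower, at 1.30%, 0.281%, 0.798%, 0.686% and 2.63%. The share of members was 0.943%, 0.00%, 1.42%, 0.943% and 3.77% in the same order. It lay below that of all genes without Ctrl replicate 1 or Ctrl replicate 2. None of the 21 members passed in all 6 of these fits, but the median log2 fold change over the members stayed between 0.11 and 0.14, and 153 to 167 members lay above 0.

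**Figure D3:**
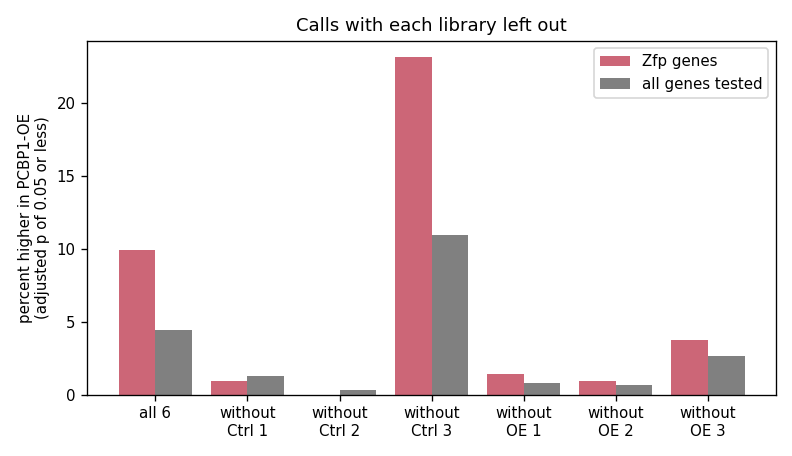
Red bars give the percent of the Zfp genes, and grey bars the percent of all genes tested, that rose at an FDR of 0.05 or less with all 6 libraries or after 1 was left out (OE is PCBP1-OE). The red bar stands at 9.91% with all libraries, at 23.1% without Ctrl replicate 3 and at 0.00% to 3.77% without any other library.

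Among the members with a known part in genomic imprinting, Zfp445 (ENSRNOG00000025554, chromosome 8) had the lowest FDR of the whole set. Zfp445 is a KRAB zinc finger protein that, together with Zfp57, protects methylation at imprinting control regions. Its level was 1.99, 2.30 and 2.23 CPM in Ctrl and 4.27, 4.56 and 4.29 CPM in PCBP1-OE. The groups did not overlap, and the gap between them was many times the spread within either. The log2 fold change was 1.00 ± 0.17 (SE, adjusted p = 0.00870, edgeR's quasi-likelihood test), and it passed in 5 of the 6 fits with a library left out and in 12 of all 14 alternatives. Its partner Zfp57 was below the minimum, with 0, 1 and 3 counts in Ctrl and 1, 1 and 0 in PCBP1-OE, so no change could be measured at this depth.

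Zfp445 lies beside another member that rose, Zfp167, which RefSeq names Zkscan7, a gene with SCAN and KRAB domains. Zfp167 (ENSRNOG00000004104) had 3.88, 4.93 and 5.35 CPM in Ctrl and 7.21, 7.24 and 6.38 CPM in PCBP1-OE, without overlap. Its log2 fold change was 0.55 ± 0.15 (SE, adjusted p = 0.0419). A second such pair lies on chromosome 12. It consists of Zfp498 (ENSRNOG00000042213, Zscan25 in RefSeq) and Zfp655 (ENSRNOG00000060129), a KRAB protein described as a partner of the signalling protein Vav1. Zfp498 had 17.0, 14.3 and 16.2 CPM in Ctrl and 22.6, 21.5 and 19.2 CPM in PCBP1-OE (0.42 ± 0.10 SE on the log2 scale, adjusted p = 0.0238). Zfp655 had 56.1, 60.1 and 58.1 CPM in Ctrl and 67.8, 64.6 and 67.4 CPM in PCBP1-OE (0.20 ± 0.05 SE on the log2 scale, adjusted p = 0.0313). In both pairs each gene was separated between the groups, and within a pair the folds differed in size.

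The promoters of these 4 genes are shown because they are the only direct neighbours in the set that both rose, in the gene order of the RefSeq assembly GRCr8. Each is the 250 bases before the RefSeq start site in GRCr8, read 5′ to 3′ on the strand of the gene. The spans are chr8:131350750-131350999 on the minus strand for Zfp445, chr8:131379434-131379683 on the plus strand for Zfp167, chr12:14451920-14452169 on the minus strand for Zfp498 and chr12:14488290-14488539 on the minus strand for Zfp655. Capitals mark matches, on either strand, to CCGGAAGT (a binding sequence of ETS factors) or TATAA.
Zfp445: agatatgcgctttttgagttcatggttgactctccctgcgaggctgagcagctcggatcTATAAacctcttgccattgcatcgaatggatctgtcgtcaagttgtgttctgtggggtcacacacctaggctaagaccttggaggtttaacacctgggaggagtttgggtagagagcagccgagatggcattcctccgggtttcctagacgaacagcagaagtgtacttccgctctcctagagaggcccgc
Zfp167: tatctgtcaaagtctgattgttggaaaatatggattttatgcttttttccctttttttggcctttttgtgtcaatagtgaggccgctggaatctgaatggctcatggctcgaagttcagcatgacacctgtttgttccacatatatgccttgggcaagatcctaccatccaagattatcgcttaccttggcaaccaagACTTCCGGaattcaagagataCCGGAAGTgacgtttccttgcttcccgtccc
Zfp498: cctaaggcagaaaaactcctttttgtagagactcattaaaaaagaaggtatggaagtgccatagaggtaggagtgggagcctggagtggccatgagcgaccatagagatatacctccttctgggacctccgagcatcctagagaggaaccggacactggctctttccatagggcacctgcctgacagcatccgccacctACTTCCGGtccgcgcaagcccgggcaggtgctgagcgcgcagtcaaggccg
Zfp655: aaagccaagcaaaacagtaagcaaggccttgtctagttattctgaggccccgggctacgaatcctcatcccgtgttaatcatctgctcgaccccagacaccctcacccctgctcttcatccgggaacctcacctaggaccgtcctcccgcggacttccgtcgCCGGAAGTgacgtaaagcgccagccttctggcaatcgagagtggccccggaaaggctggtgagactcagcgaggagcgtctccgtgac
Zfp167 held the ETS sequence at 2 places, which begin 52 and 31 bases before its start site. Zfp498 and Zfp655 held it once each, beginning 51 and 88 bases before the start, and Zfp445 held TATAA only, beginning 191 bases before the start.

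Over the set, 199 members were matched to RefSeq by symbol and 9 by a synonym, and a promoter on the same chromosome was found for 176, of which 17 rose. All promoters here means 33469, taken without a filter on gene type or expression. The members are protein-coding genes with a count minimum, so the 2 sets differ in more than the family. The ETS sequence was present in 13 of the 176 (7.39%), in 3 of the 17 that rose (17.6%) and in 3.10% of all promoters. The GC box GGGCGG was present in 44.9% of the member promoters, in 6 of the 17 that rose (35.3%) and in 30.5% of all promoters. CCAAT was found in 38.1%, 29.4% and 34.0%, the YY1 core AAGATGGC in 4.55%, 5.88% and 1.63%, and TATAA in 15.3%, 11.8% and 24.0%, in the same order. The cAMP response element TGACGTCA was found in 2.27% of the member promoters, in 0 of the 17 and in 1.59% of all. The median GC content was 56.2% in the members, 56.0% in the 17 and 51.2% in all promoters. No motif searched lies inside another, both strands were read, and a match describes the letters only.

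Many genes of this class arose by local duplication and lie in clusters. Of the members placed in GRCr8 order, 62 had another member as direct neighbour, in 25 runs, and 9 of them rose, with a median log2 fold change of 0.12. Another 141 had none, and 12 of them rose, also with a median of 0.12, beside 4.45% of all genes. The runs of Zfp786, Zfp398, Zfp282, Zfp212 and Zfp956 on chromosome 4, and of Zfp54, Zfp51, Zfp53 and Zfp52 on chromosome 1, held no call. Reads of near-identical copies can be split between them in counting, and how the counting treated this is not given in the sources used here. For instance, Zfp865 and Zfp866 each stand on 2 gene identifiers, and the log2 fold changes of the pair named Zfp865 were 0.24 and -0.24, neither of which passed.

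Among members with a BTB domain, Zfp238, which RefSeq names Zbtb18, is a repressor required for the maturation of cortical neurons. Zfp238 had 5.71, 6.66 and 8.25 CPM in Ctrl and 11.3, 11.6 and 10.01 CPM in PCBP1-OE. Ctrl replicate 3 was the highest of its group and PCBP1-OE replicate 3 the lowest of its own, and a gap was left between them. The log2 fold change was 0.67 ± 0.14 (SE, adjusted p = 0.0172). Zfp295 (Zbtb21), a repressor that pairs with Zbtb14, had 46.0, 44.4 and 50.6 CPM in Ctrl and 56.5, 54.6 and 55.1 CPM in PCBP1-OE (log2 fold change 0.24 ± 0.06 SE, adjusted p = 0.0293). Zfp131, another BTB protein, had 49.1, 47.0 and 54.1 CPM against 59.0, 56.1 and 58.7 CPM (0.21 ± 0.06 SE on the log2 scale, adjusted p = 0.0455). All 3 were separated between the groups, at less than 2-fold.

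**Figure D4:**
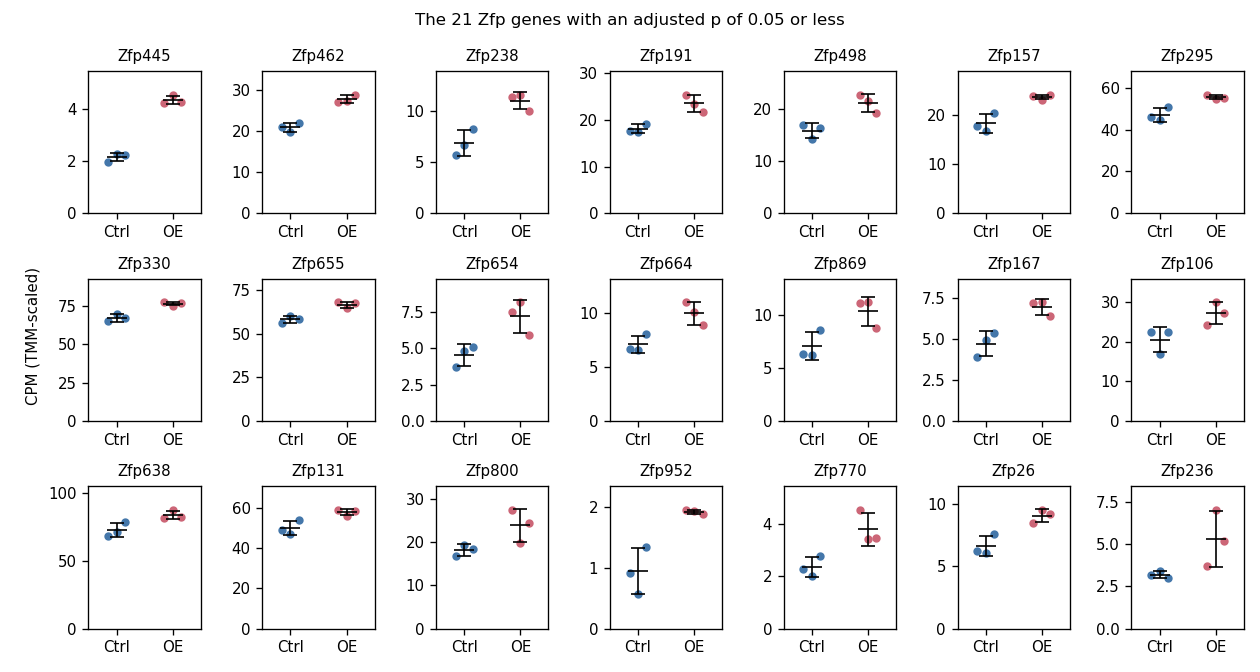
The panels show CPM by library for the members that rose, with a blue point for each of the 3 Ctrl libraries, a red point for each of the 3 PCBP1-OE (OE) libraries, and the group mean with its SD in black. Each vertical axis starts at 0. In every panel the lowest PCBP1-OE library lies above the highest Ctrl library, by a narrow margin in genes such as Zfp869 and Zfp800.

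Among members tied to chromatin and cell differentiation, Zfp462 was the clearest. Zfp462 (ENSRNOG00000032048) is a large protein that guides heterochromatin in stem cells and is needed in neural development. It had 21.1, 19.9 and 22.0 CPM in Ctrl and 27.1, 27.5 and 28.9 CPM in PCBP1-OE, 2 tight groups well apart. The log2 fold change was 0.41 ± 0.08 (SE, adjusted p = 0.0111), and it passed in 4 of the 6 fits with a library left out. Apart from Zfp445 and Zfp462, every called member passed in only 1 or 2 of these 6 fits. Zfp462 was the 1 call among the 8 differentiation genes listed, of which 6 were above 0.

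The other members of that list did not pass. The transcription factor Zfp423, a partner of EBF proteins in neural and fat precursors, had 5.71, 5.03 and 5.08 CPM against 6.85, 8.23 and 5.87 CPM (log2 fold change 0.41, adjusted p = 0.105). Its paralog Zfp521 stood at -0.01. Zfp516, a factor of brown fat, had a log2 fold change of 0.51 (adjusted p = 0.141), Zfp703 of 0.10 and Zfp503 of 0.03. Zfp292, a gene of neurodevelopment, was separated between the groups at 28.6 to 32.5 against 34.3 to 35.9 CPM and missed the threshold (0.22 on the log2 scale, adjusted p = 0.0597). Zfp536, a repressor of neuronal differentiation, had a log2 fold change of -0.22 (adjusted p = 0.264), with Ctrl replicate 3, at 16.3 CPM, the lowest of all 6 libraries.

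Of the 5 members listed with corepressor and chromatin complexes, 0 passed and 4 were above 0. Zfp532 had a log2 fold change of 0.14, Zfp592 of 0.08 and Zfp687 of -0.03; these 3 form the Z3 complex with the chromatin reader Zmynd8. Zfp644, a partner of the methyltransferases G9a and GLP, stood at 0.18, and Zfp639 at 0.11. The 8 listed transcription factors also held 0 calls, and 4 were above 0. The largest values were those of Zfp281, a regulator of pluripotency (0.36, adjusted p = 0.204), and Zfp217, a breast cancer oncogene (0.35, adjusted p = 0.0810), both with separated groups. Zfp143, which activates many housekeeping promoters, stood at 0.15 (adjusted p = 0.203) and Zfp148 at 0.12. Zfp384, Zfp335, Zfp219 and Zfp64 had log2 fold changes of 0.00, 0.00, -0.02 and -0.05.

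Of the 7 listed members that bind or process RNA, 2 rose, 5 had separated groups and 7 were above 0. Over the whole Zfp set 9.91% rose, 26.4% were separated upwards and 76.4% were above 0, and over all genes 4.45%, 14.1% and 50.5%, so that 7 genes are too few to set the list apart. Zfp106, an RNA-binding protein needed for motor neurons and muscle, had 22.5, 16.8 and 22.4 CPM in Ctrl and 24.3, 29.9 and 27.4 CPM in PCBP1-OE. Its groups were close, with Ctrl replicates 1 and 3 just under PCBP1-OE replicate 1 (log2 fold change 0.40 ± 0.11 SE, adjusted p = 0.0437). Zfp638, which binds cytidine-rich sequences and silences unintegrated retroviral DNA with the HUSH complex, had 68.1, 71.0 and 78.4 CPM in Ctrl and 81.5, 87.1 and 81.7 CPM in PCBP1-OE (0.20 ± 0.06 SE on the log2 scale, adjusted p = 0.0438).

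The remaining 5 of that list missed the threshold. Zfp207, a spindle protein that also acts in splicing, was separated at 92.2 to 94.3 CPM against 98.9 to 103 CPM (log2 fold change 0.13, adjusted p = 0.0770). Zfp318 stood at 0.21 (adjusted p = 0.127), Zfp326, a subunit of a complex that links transcript elongation to splicing, at 0.24 (adjusted p = 0.215), and Zfp36, which binds AU-rich elements and speeds mRNA decay, at 0.12 (adjusted p = 0.187). Zfp346, which binds double-stranded RNA, stood at 0.11. Among members that act on ribosomes and protein tags, none passed: the ubiquitin ligase Zfp598, a sensor of collided ribosomes, had a log2 fold change of 0.08 (adjusted p = 0.297), Zfp593 of 0.01, Zfp91 of 0.11 (adjusted p = 0.135) and the SUMO ligase Zfp451 of 0.21 (adjusted p = 0.130). Zfp622, a factor of ribosome assembly, had 0 or 1 counts per library and was below the minimum.

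The remaining members that rose are DNA-binding or nucleolar proteins of varied or little-known function. Zfp191 (Zfp24 in RefSeq), a SCAN protein needed for myelination by oligodendrocytes, had 17.7, 17.5 and 19.3 CPM in Ctrl and 25.4, 23.5 and 21.8 CPM in PCBP1-OE (log2 fold change 0.38 ± 0.09 SE, adjusted p = 0.0230). Zfp330, a protein of the nucleolus, had 65.0, 69.7 and 67.0 CPM in Ctrl and 77.3, 75.3 and 76.8 CPM in PCBP1-OE. Its change was the smallest called, 1.14-fold (0.19 ± 0.05 SE on the log2 scale, adjusted p = 0.0312). Both genes had separated groups. Those of Zfp330 were tight, while the PCBP1-OE libraries of Zfp191 spread from 21.8 to 25.4 CPM.

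At low counts the same direction rested on fewer reads. Zfp952 had 18, 12 and 30 counts in Ctrl and 43, 39 and 37 counts in PCBP1-OE, with a log2 fold change of 1.01 ± 0.29 (SE, adjusted p = 0.0463). Zfp236 had 3.16, 3.40 and 2.99 CPM in Ctrl and 3.72, 7.04 and 5.21 CPM in PCBP1-OE, so that 1 library, PCBP1-OE replicate 1, lay close to the Ctrl group (0.74 ± 0.22 SE on the log2 scale, adjusted p = 0.0488). Zfp770 rose from 2.36 ± 0.38 to 3.81 ± 0.63 CPM (mean ± SD, n = 3 each, log2 fold change 0.69, adjusted p = 0.0476) and Zfp654 from 4.52 ± 0.75 to 7.18 ± 1.14 CPM (0.67, adjusted p = 0.0320). The largest log2 fold change of the set belonged to Zfp120, at 1.06 ± 0.38 (SE), which did not pass (adjusted p = 0.0848). Zfp120 is in the study's list of differentially expressed genes, so it was a call there and not in the main test here. The study names edgeR with an FDR and a 2-fold threshold, but no test within edgeR. Of 12 alternatives with an adjusted p here, 2 called Zfp120. These were edgeR's exact test (adjusted p = 0.0434) and the quasi-likelihood test without Ctrl replicate 3 (adjusted p = 0.0474). Zfp120 had 7, 8 and 13 counts in Ctrl and 26, 19 and 13 in PCBP1-OE, with equal counts in replicate 3 of both groups.

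The other 5 calls had group means of 6.63 to 23.9 CPM. Zfp664 had a log2 fold change of 0.49 (adjusted p = 0.0381), Zfp869 of 0.55 (0.0410), Zfp26 of 0.45 (0.0485), Zfp800 of 0.39 (0.0455) and Zfp157 of 0.37 (0.0288). For Zfp869 the margin was narrow, with Ctrl replicate 3 at 8.61 CPM and PCBP1-OE replicate 3 at 8.78 CPM, and for Zfp800 it was 19.4 against 19.8 CPM. For Zfp157 the margin was wider, 20.5 against 23.1 CPM.

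None of the 5 members with the most reads passed the test. Zfp791 had 191, 189 and 162 CPM in Ctrl and 194, 199 and 230 CPM in PCBP1-OE (log2 fold change 0.20, adjusted p = 0.0854), with replicate 3 the lowest of one group and the highest of the other. Zfp706 had means of 121 and 120 CPM, a log2 fold change of 0.00 (adjusted p = 0.969). Zfp91 and Zfp598, given above, complete the 5 with Zfp207. The fold of Zfp791, 1.15, was no smaller than those of Zfp330 and Zfp655, which did pass with tighter groups.

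No member fell at an FDR of 0.05 or less, and the members nearest to it were few. Zfp580 had 4.13, 4.22 and 4.33 CPM in Ctrl and 2.72, 2.77 and 3.27 CPM in PCBP1-OE, 2 separated groups (log2 fold change -0.53 ± 0.17 SE, adjusted p = 0.0593). Zfp174 had 4.74, 3.16 and 5.98 CPM in Ctrl and 3.09, 3.27 and 3.06 CPM in PCBP1-OE, and Ctrl replicate 2 lay within the other group (-0.56 ± 0.22 SE on the log2 scale, adjusted p = 0.107). Zfp444, Zfp692 and Zfp428 had log2 fold changes of -0.15, -0.25 and -0.24 (adjusted p = 0.110, 0.120 and 0.122), each with separated groups. These 5 are the members with an unadjusted p under 0.05 on the lower side, and Zfp259, Zfp772 and Zfp414 were the others whose PCBP1-OE libraries all lay below Ctrl.

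The partners and relatives of the Zfp genes were read from lists written for this comparison. KRAB cofactors and the heterochromatin proteins that act with them stood on 30 tested gene identifiers. Rcor1 stood on more than 1 of them, with log2 fold changes of 0.18 and 0.65 that did not pass. Of the 30, 1 rose (3.33%, near the 4.45% of all genes) and 0 fell, and the median log2 fold change was 0.04. The 1 was Atrx, the chromatin remodeller that deposits histone H3.3 at heterochromatin, at 43.3, 42.6 and 38.4 CPM in Ctrl and 50.2, 49.3 and 51.4 CPM in PCBP1-OE (log2 fold change 0.28 ± 0.06 SE, adjusted p = 0.0179). Trim28, the corepressor that KRAB domains bind, was at 362 ± 8.97 and 347 ± 3.10 CPM (mean ± SD, n = 3 each, log2 fold change -0.06, adjusted p = 0.376). Setdb1 was at 49.6 ± 0.39 and 50.1 ± 3.34 CPM (0.01 on the log2 scale, adjusted p = 0.914). Neither Trim28 nor Setdb1 passed the test, and for both the log2 fold change was within 0.1 of 0. For Trim28 all PCBP1-OE libraries lay below all Ctrl libraries (345 to 351 against 356 to 372 CPM), and for Setdb1 the groups overlapped.

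Zbtb, Zscan and Zkscan genes had medians near that of the Zfp set. The share of Zbtb genes that rose was near the 9.91% of the Zfp set, though on 3 calls. Of 34 tested Zbtb genes, 3 rose and 0 fell (8.82% and 0.00%, against 4.45% and 4.998% of all genes), with a median log2 fold change of 0.13. Of 12 tested Zscan and Zkscan genes 0 passed in either direction at an FDR of 0.05 or less, and the median was 0.11. At an unadjusted p under 0.05, 2 of the 12 were higher, beside 1722 of all 12624 genes tested, which is too few to set them apart. Members of the Zfp set were renamed into both families in RefSeq, as above, so that the names do not separate distinct kinds of protein.

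**Figure D5:**
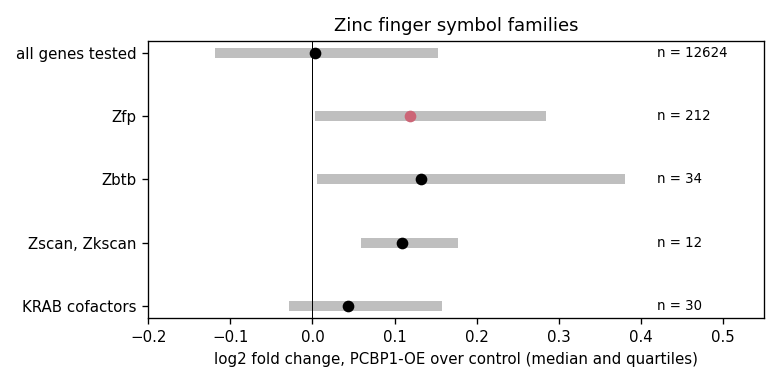
Points give the median log2 fold change, PCBP1-OE over Ctrl, and grey bars the span between quartiles, for all genes tested, the Zfp genes, the Zbtb genes, the Zscan and Zkscan genes and the KRAB cofactor genes, with the number of genes tested beside each. The medians of the zinc finger families are 0.12, 0.13 and 0.11, and that of the cofactor genes is 0.04, against 0.00 over all genes tested.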

How the data were processed

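RNA-seq of 6 libraries of cells named as PC12 was used, 3 Ctrl and 3 PCBP1-OE, grouped by their labels. The authors deposited raw counts of uniquely mapped reads per gene, made, according to the methods, with FASTX-Toolkit and TopHat2 on the rat genome Rnor_6.0. The submitters' processing notes name the human build GRCh38, although the gene identifiers are rat. How reads were assigned to genes (tool, strand, annotation) is not given in the sources used here.

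In R 4.3.3, edgeR 4.0.16 scaled the libraries (TMM), and genes with low counts were removed by filterByExpr at its defaults (10 per library, 15 in total). The quasi-likelihood test was run on the counts of the remaining 12624 of 20609 genes. P-values were adjusted over all genes tested by the Benjamini-Hochberg method, and a gene was called at an FDR of 0.05 or less. CPM values use the TMM-scaled totals. The members and all lists were chosen with earlier results of these data known. The text names every called member, the 5 members with the most reads and the genes of the lists by role. It also names Zfp445, Zfp120 and Zfp952, seen in the study's supplementary list of differentially expressed genes. Zbtb and neighbouring genes, duplicated symbols and the members on the lower side were named after their values were seen. RefSeq names and promoters are of the assembly GRCr8, and no coordinate of another build is given. Alternatives were other scalings, filters and tests (DESeq2 1.42.0, limma-voom of limma 3.58.1), a replicate block and each library left out. Same-numbered libraries did not deviate together (correlations -0.10, -0.08 and -0.11), so the fit has no block. A split of the members by the KRAB domain was planned and not run, since protein sequences were not used here.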

Additional observations from a re-analysis of the deposited data

How the results depend on the processing

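RLE scaling, upper-quartile scaling, the stricter filter, DESeq2, edgeR's exact test and limma-voom gave 19 to 25 members that rose. In the same fits 4.43% to 6.29% of all genes rose. Without a filter on low counts 32 members rose (15.1%) and 1 (Zfp174) fell, while 1079 of 20609 genes rose (5.24%) and 1011 fell. The exact test also called 1 member (Zfp580) as lower. With the replicate block 0 rose, 0 rose by at least 2-fold, and 14 genes of the whole table rose. The replicate numbers name the libraries and were not found to pair them, no library correlating best with its own number. With each library left out, 0 to 49 members rose, 0 or 1 fell and 0 to 8 rose by at least 2-fold. DESeq2 and limma-voom each called 1 rise of at least 2-fold in place of 2. With a minimum of 30 or 200 total counts the set had 213 or 194 members, of which 21 and 20 rose.

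Over the 58 single genes tested under the alternatives, leaving out values with no adjusted p, 648 values kept their direction and side of the threshold, 119 lost the call, 16 gained it and 22 changed sign, all of the last for uncalled genes near 0. Upper-quartile scaling, which moved the median of all genes to 0.02, turned Zfp219 to 0.00404, Zfp521 to 0.00582, Zfp706 to 0.0158, Zfp335 to 0.0155 and Zfp384 to 0.0178, and the stricter filter turned Zfp384 to 0.000972. With a library left out the log2 fold change ran from -0.0188 to 0.102 for Zfp503, -0.0325 to 0.0139 for Zfp219, -0.0518 to 0.0426 for Zfp521, -0.0202 to 0.0536 for Zfp593, -0.0408 to 0.0441 for Zfp706, -0.0580 to 0.0487 for Zfp335, -0.0353 to 0.0478 for Zfp384 and -0.0383 to 0.0578 for Setdb1. The cause was not tested. Depth limits what can be read from the 32 genes below the minimum. The planned comparison by KRAB domain was not run.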

Other observations

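The members that rose were spread unevenly over the chromosomes, a pattern chosen after its values were seen and not tested. Chromosome 1 held 55 members, the most of any, and 0 of them rose, while 3.36% of the 1577 genes tested there rose. Still, 67.3% of these members had a log2 fold change above 0, with a median of 0.08. For all genes tested on chromosome 1 the values were 43.7% and -0.03. Chromosome 12 held 11 members, of which 4 rose (Zfp498, Zfp157, Zfp655 and Zfp664), against 4.33% of its 439 genes. Chromosome 8 held 15, of which 3 rose (Zfp445, Zfp167 and Zfp26), against 5.07% of its 710 genes. Chromosome 10 held 17 members and 0 calls, and 4.14% of its 1087 genes rose. There 70.6% of the members were above 0, with a median of 0.08, against 46.7% and -0.01 for all its genes.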
